A study of Arabidopsis thaliana with 12 samples.

Results

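The 62 genes described here are the dimmer single-gene transcripts that were lower in the pam48 mutant of Arabidopsis thaliana than in the wild type (WT) in the samples numbered 1 to 4. They were taken from an array of 3439 probes, of which 692 had 1 gene in the platform annotation. The rule asked for a mean difference, pam48 minus WT, of -1 or less on the log2 scale in numbers 1 and 2, and again in numbers 3 and 4. Both conditions held for 77 of the 692 probes with 1 gene, and for 10.8% of all 3439 probes. Of the 77, 11 were set aside by name and 4 lay in the brightest 10% of probes by mean WT rank, which left 62. The members were thus chosen by their measured differences in numbers 1 to 4. Their differences there are given as a description without a test. Numbers 5 and 6 did not enter the differences of the rule, and they carry the tests. WT 5 and 6 did enter the mean WT rank, and all 12 samples entered the quantile normalisation.

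All samples were total RNA of ecotype Columbia 0, with 6 from WT and 6 from pam48, each numbered 1 to 6. Per the labels, pam48 is a photosynthesis mutant with a defect in some unnamed protein. Tissue, age and growth conditions are not stated. The mutated gene is therefore unknown here, and its transcript could not be used to check the labels. Each sample was nearest, among those of its genotype, to the one with the consecutive number (1 with 2, 3 with 4, 5 with 6) in 12 of 12 cases. Such samples are called a couple here. Nothing in the labels tells whether different numbers stand for different plants. The p-values therefore reflect variation among these 12 samples, and that variation may be technical. In bulk RNA, fewer cells of a type and less RNA per cell cannot be told apart.

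Of the 62 genes, 11 have a symbol in the reference table. The named ones fall into plastid functions, protein turnover, metabolism and regulation. NdhN is a subunit of the chloroplast NADH dehydrogenase-like complex, which returns electrons to the plastoquinone pool and takes part in cyclic electron flow around photosystem I. Its action shows as a transient rise of chlorophyll fluorescence after the light is switched off, after which the plastid protein PIFI is named. Z-ISO is the isomerase that acts on zeta-carotene on the way to the coloured carotenoids, which protect chlorophyll from excess light. TPP2, tripeptidyl peptidase II, is a large serine peptidase that trims peptides released by the proteasome. For 51 members the reference table holds no gene symbol beyond the locus, and for 1 of these, AT5G65360, it lists histone H3.1 as a synonym. No function is given for the other loci.

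Levels are given as quantile normalised intensities, on the deposited linear scale whose maximum is 100. In each sample, values under the 5th percentile of positive values were raised to it. This lowest level is called the floor, and a value at the floor says only that the transcript was at or under it. The floor was not the same in the genotypes. In numbers 1 and 2 it was lower in pam48 than in WT by a log2 difference of -0.78, in 3 and 4 by -1.65, and in 5 and 6 by -0.02. A probe at the floor in every sample of a couple number thus takes these values as its difference without having been measured. Differences on the values as deposited skip the quantile normalisation but keep a floor, the 5th percentile of positive values of each sample on that scale.

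The members reached from the 8.47th to the 84.2nd percentile of WT rank, with a median of 26.8, against 46.9 for the other 630 probes with 1 gene. Of the 62, 20 stood above the floor in all 12 samples, 30 were at the floor in at least 1 sample but not in all pam48 samples, and 12 were at the floor in all 6 pam48 samples. No member was at the floor in all 12 or in all 6 WT samples. In 7 members all 4 samples numbered 3 and 4 were at the floor, so that their difference of -1.65 there is that of the floors. Just inside the rule lay AT5G13410, AT3G03590 and AT4G26770, whose weaker differences of the 2 couples were -1.001, -1.004 and -1.006 (log2). Just outside lay AT1G12230 at -0.9998 and AT5G46420 at -0.998, both in numbers 1 and 2, and AT5G49120 at -0.99 in numbers 3 and 4.

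**Figure D1:**
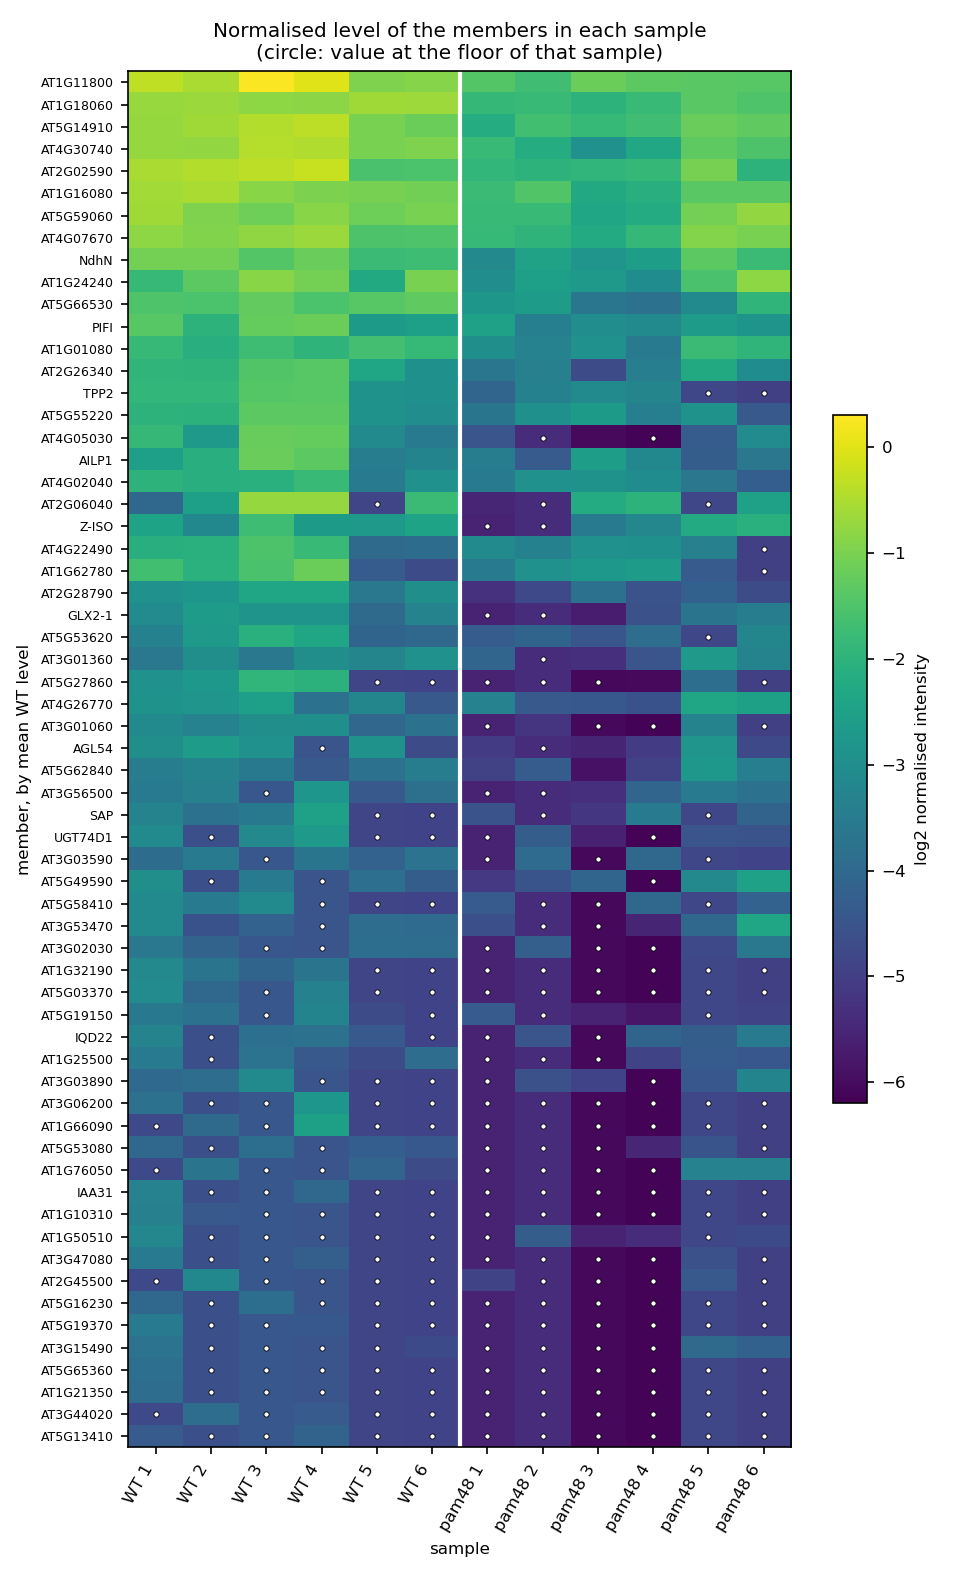
Log2 normalised intensity of the 62 members (rows, by mean WT level) in the 6 WT and 6 pam48 samples (columns), with white circles on values at the floor of that sample. The upper rows have few circles, and 12 rows, all in the lower part, have circles in all 6 pam48 samples.

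In numbers 5 and 6 the reduction was not seen in most members. For 12 of the 62 all 4 samples of these numbers were at the floor, so that their difference was not measured. Over the other 50 members the median difference was 0.027 (log2), beside -0.0040 over the 3210 probes of the array measured in the same sense. Over all 62 it was -0.02, which is the difference between the floors, while it had been -1.25 in numbers 1 and 2 and -1.65 in 3 and 4, on which the members were chosen. In limma's test of numbers 5 and 6, 3 of 62 members were called lower at an adjusted p under 0.05 and 1 was called higher, where 8.46% of all probes were called lower and 6.16% higher. The 3 were TPP2, AT1G18060 and AT5G66530, and the 1 was AT4G07670. A log2 difference of -1 or less was reached by 3 members (TPP2, AT5G66530 and AT2G28790), or 4.84%, against 6.11% of all probes. Both pam48 samples lay below both WT samples in 12 members, or 19.4%, against 28.4% of all probes. The opposite order was found in 14 members, against 29% of all probes. Among these, AT1G50510, SAP and AT5G58410 had both WT samples and pam48 5 at the floor. For pam48 5 their order is that of the floors. A difference below 0 was found in 36 members, against 53.7% of all probes, but 12 of the 36 are those at the floor throughout. Among the 50 measured members 24 lay below 0, or 48%, against 50.4% of the measured probes. A difference of 1 or more was found in 4 members, or 6.45%, against 5.21%. None of these shares sets the members apart as lower in numbers 5 and 6.

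That test pools the spread within couples over all 12 samples, which is not the spread between separately grown plants if a couple was handled together. Fitted on the 4 samples numbered 5 and 6 alone, it called TPP2 and no other member lower. The count of all probes called there, 503, was 155 in that fit and 277 with the replicate number as a block.

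**Figure D2:**
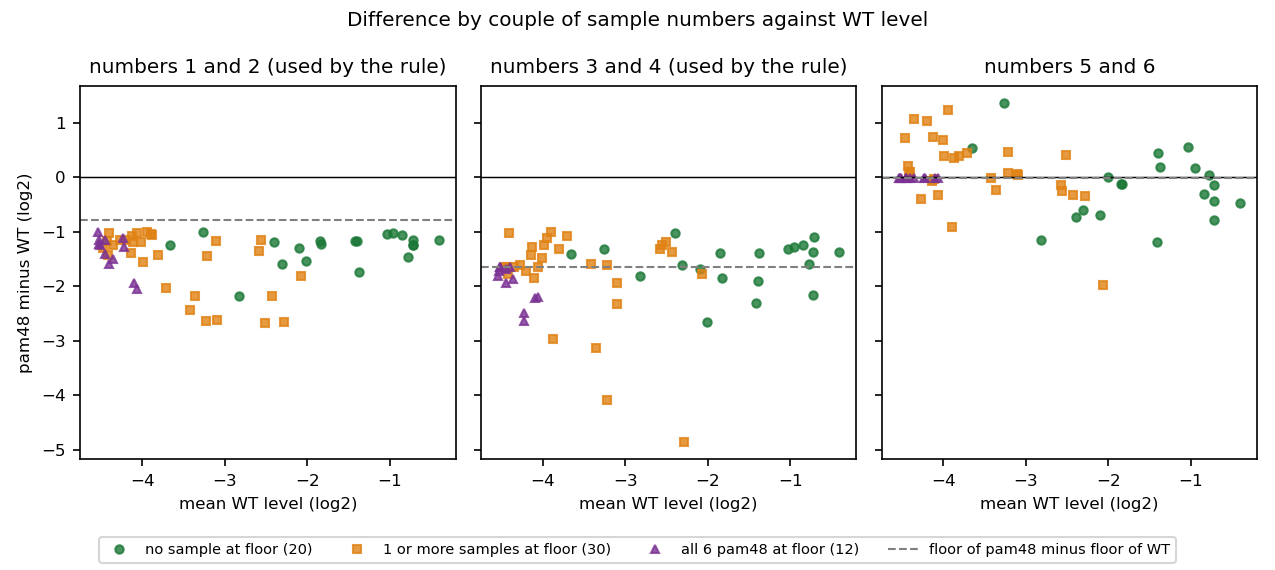
Difference pam48 minus WT (log2) in each couple of sample numbers against mean WT level, 1 point per member, with symbols for how many samples were at the floor and a dashed line at the difference between the floors of the genotypes. All 62 points lie at -1 or lower in the left and middle panels, by the rule, and around 0 in the right panel, where the 12 triangles lie on the dashed line at -0.02.

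TPP2 had the smallest p of the 62 members in limma's test of numbers 5 and 6. Its normalised intensity in WT ran from 0.130 to 0.382 with a median of 0.268, and in pam48 from 0.0319 to 0.118 with a median of 0.0790. All 6 pam48 samples lay below all 6 WT samples on this scale. It stood at 0.135 and 0.130 in WT 5 and 6 and at the floor, 0.0355 and 0.0319, in pam48 5 and 6. With pam48 taken at its floor the log2 difference there was -1.98 ± 0.22 (SE, 2 samples per genotype; limma, adjusted p = 0.0014), and it was -1.51 with 1 common floor for all samples. Both pam48 values there are floors, so the spread between these 2 samples was not measured, and the SE and p take the floors as observed values. The call held in all 22 alternatives tried (adjusted p from 6.2e-04 to 0.040). WT itself was lower in numbers 5 and 6 than in 1 to 4 for this gene, by -1.27 on the log2 scale. On the values as deposited TPP2 differed by -0.63 in numbers 1 and 2, by -0.37 in 3 and 4 and by -1.78 in 5 and 6. The deposited values of pam48 5 and 6 were 0 and 0.0372, so the -1.78 rests on the floor of that scale.

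AT1G18060 was among the brightest members and varied little in WT, from 0.566 to 0.651 with a median of 0.620. In pam48 it ran from 0.248 to 0.389 with a median of 0.287, so that the genotypes did not overlap on the normalised scale. The WT values of numbers 5 and 6 were 0.651 and 0.631 and the pam48 values 0.389 and 0.355. This is a 1.73-fold reduction (log2 difference -0.79 ± 0.12, SE, 2 samples per genotype; limma, adjusted p = 0.0051), beside 2.22-fold and 2.13-fold in the lower-numbered couples. Of 22 alternatives, the fit on 4 samples alone ended the call (adjusted p = 0.061, range over the alternatives 0.0013 to 0.061). On the values as deposited the difference was -0.48 in numbers 5 and 6, -0.30 in 1 and 2 and 0.016 in 3 and 4, so that the reduction of the middle couple was not present on that scale.

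AT5G66530 ran from 0.343 to 0.419 in WT with a median of 0.368, and from 0.0733 to 0.262 in pam48 with a median of 0.131. The genotypes did not overlap on the normalised scale. Samples 5 and 6 were at 0.383 and 0.412 in WT and at 0.116 and 0.262 in pam48, which is 2.28-fold lower (log2 difference -1.19 ± 0.33, SE; limma, adjusted p = 0.047). The pam48 samples differed more from each other than the WT samples did. The call was lost in 16 of 22 alternatives, whose adjusted p ran from 0.0021 to 0.19, among them the replicate block (0.071) and leaving out any sample other than pam48 6. Without pam48 5 the difference was -0.61, and its adjusted p was 0.073, while without pam48 6 it was -1.80 (0.0021).

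AT2G28790 came next. Its normalised values in WT lay between 0.0827 and 0.197 (median 0.140). In pam48 they lay between 0.0258 and 0.0732 (median 0.0409), with no overlap on this scale. On the values as deposited it differed by -0.65 in numbers 1 and 2 and by -0.89 in 5 and 6. In 3 and 4 it was higher in pam48 on the deposited scale, by 0.20. For numbers 5 and 6 its normalised values were 0.0827 and 0.128 in WT against 0.0548 and 0.0386 in pam48. The difference there was -1.16 ± 0.33 (log2, SE), just short of the threshold (limma, adjusted p = 0.0504), and it passed in 8 of 22 alternatives (range of adjusted p 0.027 to 0.26).

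On the normalised scale, complete separation of the genotypes over all 12 samples was found in 8 of the 62 members. Of all probes 4.07% had it. The differences of the rule used 8 of those 12 samples, so nothing is read from this share. On the values as deposited the genotypes overlapped in each of the 8. There TPP2 had a lowest WT value of 0.131 and a highest pam48 value of 0.192. The 8 were TPP2, AT1G18060, AT5G66530, AT2G28790, AT1G11800, AT5G14910, AT4G30740 and AT1G16080. In the last 4, which are among the 6 brightest members, the differences in numbers 5 and 6 ran from -0.47 to -0.14 (log2) and did not pass limma's test. AT1G11800 was at 0.512 and 0.546 in WT and at 0.386 and 0.380 in pam48 in those numbers, a difference of -0.47 ± 0.16 (SE; adjusted p = 0.087, range over the alternatives 0.041 to 0.51). AT4G30740 gave -0.44 ± 0.21 (limma, adjusted p = 0.22). AT1G16080 gave -0.30 ± 0.14 (adjusted p = 0.21). For AT5G14910 the groups were set apart by a narrow gap, with a lowest WT value of 0.445 and a highest pam48 value of 0.442. Its difference in numbers 5 and 6 was -0.14, and 0.11 on the values as deposited.

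Of the members with plastid functions, NdhN was at 0.480, 0.480, 0.369 and 0.438 in WT numbers 1 to 4 and at 0.114, 0.183, 0.141 and 0.166 in pam48. It was 3.32-fold lower in the first couple and 2.63-fold lower in the second. In numbers 5 and 6 the genotypes overlapped, at 0.292 and 0.302 in WT and at 0.398 and 0.292 in pam48 (log2 difference 0.20 ± 0.25, SE; limma, adjusted p = 0.69). Without pam48 5 that difference was -0.028. On the normalised scale WT was lower in 5 and 6 than in 1 to 4 by -0.56, and pam48 was higher by 1.20 (log2). On the values as deposited WT was at 0.304, 0.302, 0.226 and 0.290 in numbers 1 to 4. It was at 0.286 and 0.294 there in 5 and 6. The differences on that scale were -0.77 in numbers 1 and 2, -0.07 in 3 and 4 and 0.44 in 5 and 6.

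PIFI lay between 0.159 and 0.445 in WT and between 0.0957 and 0.181 in pam48, with medians of 0.316 and 0.132. Its 2 lowest WT values, 0.159 and 0.173, were those of numbers 5 and 6, where pam48 had 0.163 and 0.140. The difference there was -0.13 ± 0.30 (log2, SE; limma, adjusted p = 0.87). Between the lower and higher numbers WT differed by -1.14 and pam48 by 0.27.

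For Z-ISO the larger difference between the sets of numbers was in pam48. WT differed by -0.074 (log2) between them and pam48 by 2.27, with WT running from 0.112 to 0.304 over the 6 samples. In pam48 numbers 1 and 2 were at the floor, 3 and 4 were at 0.0850 and 0.110, and 5 and 6 were at 0.215 and 0.236. The last pair lay above both WT samples of the same numbers, 0.155 and 0.185 (difference 0.41 ± 0.34, SE; limma, adjusted p = 0.51). On the values as deposited Z-ISO was lower in numbers 1 and 2, by -1.07, and higher in 3 and 4, by 0.57. The deposited pam48 values of numbers 1 and 2 were 0 and 0.0304, so the -1.07 rests on the floor of that scale.

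Among the other members named in the reference table, GLX2-1 belongs to the glyoxalase II family, whose enzymes take part in the removal of methylglyoxal. It ran from 0.0649 to 0.162 in WT, was at the floor in pam48 1 and 2, and reached 0.0766 and 0.0914 in pam48 5 and 6. It was 6.18-fold lower in numbers 1 and 2 and 4.99-fold lower in 3 and 4, of which the first contains the floor. With 1 common floor the differences were -1.59 and -1.60 (log2). It gave 0.04 ± 0.36 in numbers 5 and 6 (log2, SE; limma, adjusted p = 0.99). AILP1, named for its likeness to aluminium-induced proteins, lay between 0.0916 and 0.442 in WT and between 0.0494 and 0.168 in pam48. It gave -0.60 ± 0.35 in numbers 5 and 6 (log2, SE; adjusted p = 0.32), with both pam48 samples below both WT samples. AILP1 lies next to another member, AT5G19150, in the order of protein-coding genes. They were the only neighbouring pair among the members, and the 692 genes hold 13 such pairs. AT5G19150 was much dimmer, with a WT median of 0.0596, and gave -0.03 in numbers 5 and 6.

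The named regulators and the enzyme UGT74D1 were dim in these samples. AGL54, a MADS-box transcription factor, had WT values from 0.0386 to 0.165 and pam48 values from 0.0217 to 0.142, with number 5 high in both genotypes (0.138 and 0.142). SAP, the STERILE APETALA protein that acts in flower development, had 2 WT samples at the floor, numbers 5 and 6. IAA31, a member of the auxin-responsive Aux/IAA repressors, stood at the floor in 4 WT and all 6 pam48 samples, and its WT level rested on numbers 1 and 4, at 0.0999 and 0.0608. UGT74D1, a UDP-glucosyltransferase, was at the floor in 3 WT and 2 pam48 samples. IQD22, whose IQ domain binds calmodulin, was at the floor in 2 WT and 2 pam48 samples. Their differences in numbers 5 and 6 ran from -0.02 for AGL54 and IAA31 to 0.75 for IQD22 (0.75 ± 0.70, log2, SE; limma, adjusted p = 0.57). None of them passed the test. With 1 common floor, none of these 5 kept a reduction of 1 or more in both lower-numbered couples.

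The histone gene AT5G65360 was above the floor in 1 sample of 12, WT 1, at 0.0701. Histone H3 genes have near-identical copies, so its spot may carry signal from related transcripts, and with 11 samples at the floor its reduction was not measured. A similar case was AT1G21350, also above the floor in WT 1 alone. The further 10 members with no pam48 value above the floor were above it in more WT samples. Among them AT1G32190 was above it in WT 1 to 4, at 0.114, 0.0767, 0.0585 and 0.0768. Its differences with 1 common floor, -1.01 and -0.53 (log2), are bounds. All 12 gave the same difference in numbers 5 and 6, -0.02, which is that of the floors.

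The lowest differences of the 62 in numbers 3 and 4 belonged to AT4G05030 and AT5G27860, which came after Z-ISO in numbers 1 and 2. With 1 common floor AT4G05030 was lowest in both couples, and in numbers 3 and 4 AT2G26340 came between it and AT5G27860. AT4G05030 was at 0.276, 0.152, 0.435 and 0.422 in WT 1 to 4 and at 0.0443, 0.0240, 0.0152 and 0.0142 in pam48, of which numbers 2 and 4 were at the floor. Its differences were -2.65 and -4.86 (log2) with each sample's own floor, and -2.14 and -3.21 with 1 common floor. At the higher numbers the genotypes overlapped, at 0.115 and 0.0850 in WT and at 0.0504 and 0.119 in pam48 (log2 difference -0.35 ± 0.47, SE; limma, adjusted p = 0.72), and without pam48 5 the difference was 0.27. AT5G27860 was between 0.133 and 0.265 in WT 1 to 4 and at the floor in both WT samples of numbers 5 and 6. In the lower-numbered couples, where 3 of the 4 pam48 samples were at the floor, its differences were -2.64 and -4.08 with each sample's own floor and -1.60 and -2.46 with a common one. At the higher numbers it gave 0.46 ± 0.30 (log2, SE; adjusted p = 0.39). AT4G05030 and AT5G27860 were the 2 members that met the rule on the values as deposited too. There AT4G05030 was lower by -1.28 and -2.48, and AT5G27860 by -1.02 and -1.47. These differences contain floor values of that scale. The deposited values of pam48 1 to 4 were 0.0126, 0, 0.00708 and 0.0504 for AT5G27860. For AT4G05030 they were 0.0595, 0.0153, 0.0499 and 0.0128.

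**Figure D3:**
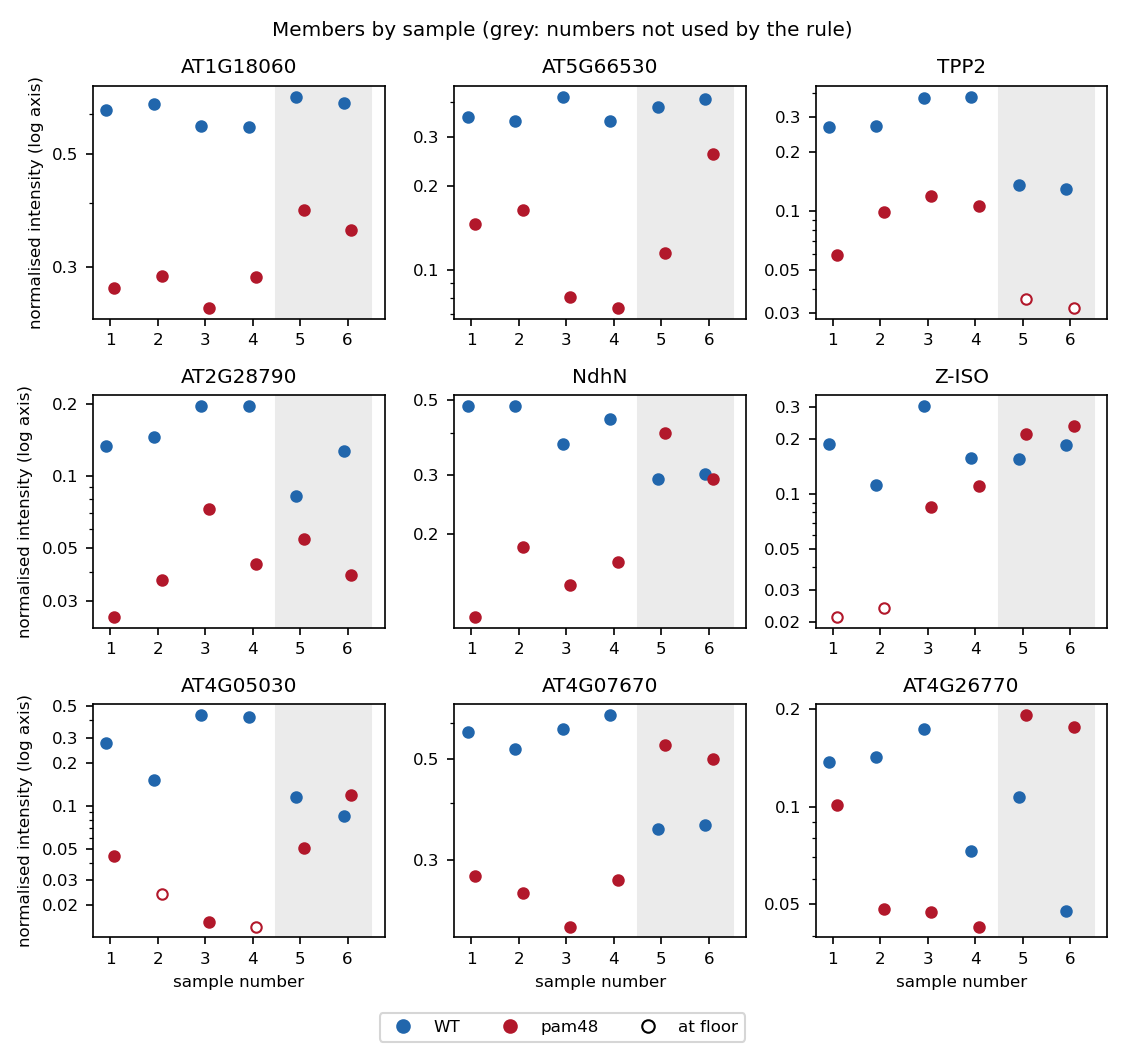
Normalised intensity (log axis) of 9 members by sample number, WT in blue and pam48 in red, open symbols at the floor, with numbers 5 and 6 shaded. TPP2, AT1G18060, AT5G66530 and AT2G28790 are lower in pam48 in all 6 numbers, NdhN and AT4G05030 overlap in 5 and 6, and Z-ISO, AT4G07670 and AT4G26770 are higher in pam48 there.

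Some members were higher in pam48 in numbers 5 and 6. AT4G07670 was at 0.350 and 0.357 in WT and at 0.535 and 0.499 in pam48, a 1.46-fold increase (log2 difference 0.55 ± 0.15, SE, 2 samples per genotype; limma, adjusted p = 0.043). In numbers 1 to 4 it was between 0.525 and 0.624 in WT and between 0.214 and 0.276 in pam48. Of the higher-numbered pam48 samples, number 5 thus lay in the range of WT 1 to 4 and number 6 below it. The call held in 8 of 22 alternatives (adjusted p from 0.021 to 0.19). Leaving out any sample other than pam48 3 or pam48 4 ended it, and so did the replicate block (0.075).

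AT4G26770 gave the largest positive difference of the 62, 1.36 ± 0.52 (log2, SE; limma, adjusted p = 0.13). It was at 0.107 and 0.0476 in WT 5 and 6 and at 0.192 and 0.176 in pam48. Dimmer members followed: AT5G49590 at 1.24, AT1G76050 at 1.07, AT3G03890 at 1.03 and IQD22 at 0.75, with both pam48 samples above both WT samples in each. AT1G76050 had an adjusted p of 0.067 by limma and passed with a common floor (0.027) and in 5 of 21 alternatives in all (range 0.0077 to 0.32). The other 3 did not pass in any alternative. AT3G03890 had both WT samples at the floor. AT3G15490, with WT 5 at the floor, gave 0.72 ± 0.26 (log2, SE; limma, adjusted p = 0.11).

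The remaining bright members did not pass limma's test of numbers 5 and 6. AT2G02590 was at 0.698, 0.735, 0.791 and 0.843 in WT 1 to 4 and between 0.251 and 0.274 in pam48. In 5 and 6 it was at 0.337 and 0.342 in WT and at 0.491 and 0.251 in pam48, so that 1 pam48 sample lay on each side of WT. AT5G59060 gave 0.16 ± 0.18 there and AT1G24240 0.45 ± 0.43 (log2, SE; adjusted p = 0.63 and 0.58). AT4G02040, of intermediate brightness, gave -0.73 ± 0.30 (adjusted p = 0.16). Over the 20 members above the floor in all samples the median difference was -0.14, against -0.05 for the 2152 probes of the whole array with that property. Of these 20, 2 (10%) were called lower and 1 (5%) higher, against 11.4% and 7.57% of the 2152. Both pam48 samples lay below both WT samples in 45% of the 20, against 35.3%, and 10% reached -1 or less, against 5.72%.

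The members' levels in numbers 5 and 6 stood apart from those in 1 to 4 in both genotypes. In WT, 55 of 62 members were lower in numbers 5 and 6 than in 1 to 4, with a median change of -0.69 (log2). In pam48, 56 of 62 were higher, with a median change of 0.89. This pam48 median is the change of the floor, which the 12 members at the floor in all 6 pam48 samples took without being measured. The WT floor also changed, with means of -4.69 (log2) in numbers 1 and 2, -4.45 in 3 and 4 and -4.87 in 5 and 6. Both WT samples of 5 and 6 stood above it in 38 of the 62 members, so part of the WT changes is that of the floor. Over the 20 members never at the floor the medians were -0.63 in WT and 0.64 in pam48. Of these 20, 16 were lower in WT and 17 higher in pam48. For the other 630 probes with 1 gene these medians were -0.05 and 0.13. The rule chose the members for high WT and low pam48 levels in numbers 1 to 4, so these shifts are a description, and their part that comes from the choice itself was not measured. In 27 members WT was lower and pam48 higher by 0.5 or more, as in 33 of the other 630. Among the 20 members never at the floor this held for 5.

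A further 3 members of middle brightness were chosen after their values were seen. They show how differently the genotypes could move between the sets of numbers on the normalised scale. AT1G01080 kept its WT level on that scale, between 0.235 and 0.321 in all 6 samples. Its pam48 values there were 0.0857 to 0.133 in numbers 1 to 4, and 0.293 and 0.259 in 5 and 6. Both genotypes were higher in 5 and 6 on the values as deposited. WT was at 0.309 and 0.272 in those numbers, against 0.173 at most in 1 to 4. For pam48 the values were 0.345 and 0.309, against 0.215 at most. The deposited differences were -0.03 in numbers 1 and 2, 0.20 in 3 and 4 and 0.17 in 5 and 6 (log2). AT1G62780 was between 0.241 and 0.446 in WT 1 to 4 and at 0.0508 and 0.0378 in WT 5 and 6, and in pam48 it was between 0.0884 and 0.162 in 1 to 4, at 0.0495 in 5 and at the floor in 6. AT2G06040 varied widely in WT, from 0.0346, at the floor, to 0.608. Their differences in numbers 5 and 6 were -0.12 ± 0.24, -0.14 ± 0.30 and -0.33 ± 1.05 (log2, SE), and none passed limma's test.

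How many genes meet the rule depended on the scale. With 1 common floor in all samples, 29 of the 62 kept a difference of -1 or less in both lower-numbered couples. With median centring 27 kept it, and with cyclic loess 31. The same 27 kept it on all 3 of these scales. They include NdhN, PIFI, Z-ISO, GLX2-1, AILP1 and TPP2, and none of AGL54, SAP, UGT74D1, IQD22, IAA31 or AT5G65360. On the deposited values themselves the median probe was higher in pam48, by 1.14 in numbers 1 and 2 and by 1.64 in 3 and 4. There, with each sample's floor on that scale, 2 of the 62 kept it, and the median member differed by 0.02 and 0.99. Relative to the median probe of that scale the median member was therefore lower in both couples. Members at the floor entered these values, such as AT1G10310, whose 2.26 in numbers 3 and 4 is the difference between the floors of that scale.

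**Figure D4:**
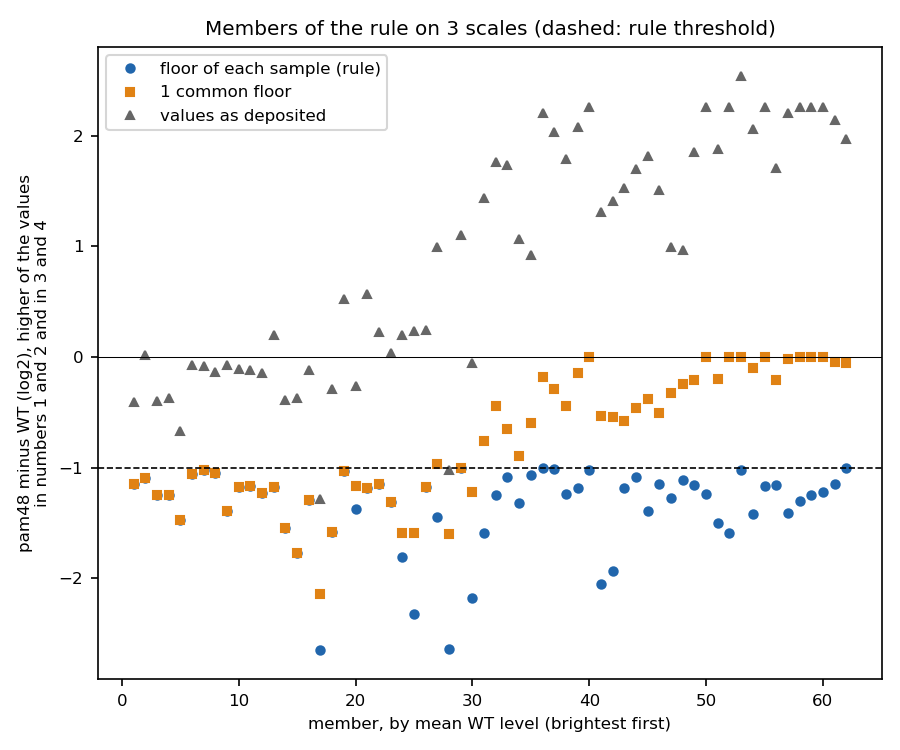
The weaker of the 2 reductions in numbers 1 to 4 (log2) for each member, ordered by WT level, with the floor of each sample as in the rule (blue), with 1 common floor (orange) and on the values as deposited (grey), and a dashed line at the threshold of -1. The brighter members keep their orange points at -1 or lower, 29 in all, the dimmer ones move to between -1 and 0, and 2 grey points lie under the line. The grey points also have a floor in each sample, on the deposited scale.

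Gene lists drawn up for comparison had little coverage. Of 17 loci of cytosolic peptidases and heavy metal associated proteins, 2 had a probe with 1 gene, TPP2 and AT4G05030. Of 14 marker loci of seed, root, senescence and green leaf, 0 had one, so the tissue could not be checked. The median gene length of the members was 2095 bases, against 2146 for all 692 genes.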

How the data were processed

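The deposited table holds 1 spot intensity per probe and sample on a linear scale with a maximum of 100. How the authors labelled, scanned, background-corrected and scaled these deposited intensities is not stated in the labels or the file. Genotypes came from the sample titles. The 12 columns were quantile normalised, values under each sample's 5th percentile of positive values (zeros excluded) were raised to it, and log2 was taken. The share of probes raised to this floor lay between 8.96% and 15.6%. Deposited medians were 0.0913 to 0.305 per sample.

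Of 692 probes with 1 gene in the platform annotation, 690 matched the TAIR10.1 gene table by Entrez Gene identifier. Probes with several genes (870) or absent from that annotation (1877) entered the fit without a name. No coordinates or sequences are printed. The table gives no gene descriptions, so no classes of function were counted.

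The contrast of numbers 5 and 6 was fitted with limma 3.58.1 (R 4.3.3, two-sided), in a model with a mean for each genotype and couple. Adjustment was Benjamini-Hochberg over 3439 probes, with a threshold of 0.05. The number of samples limits the precision. Deviations from the genotype mean correlated between WT and pam48 samples with equal numbers (r across probes 0.188 to 0.418 for the 6 numbers). Samples with unequal numbers were not compared in this way, so pairing by number cannot be told from grouping by couple. No label explains the numbering. The reported fit is unpaired, and a fit with the number as a block was an alternative, whose values are given where they change a call.

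The members and lists were chosen with earlier results of these data known. A fixed list held the 12 brightest members, the 10 with the smallest p and the 5 with the most positive difference in numbers 5 and 6. It also held AT4G05030 and AT5G27860, named in earlier text on these data. For the listed members values per sample are given, or for some only the differences in numbers 5 and 6. Members with a name in the gene table were added after their values were seen. Alternatives concerned the scaling, the floor, dim probes, the fit and each sample left out.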

Additional observations from a re-analysis of the deposited data

Results flagged for a closer look

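In 46 groups of 6 samples examined, for the members of the fixed list, 2 had a sample whose gap to the others exceeded Dixon's critical value of 0.625. For 6 independent values of a normal distribution, about 1 group in 20 is picked out this way by chance. With couples of samples and values at the floor, that rate need not hold here. AT2G02590 in pam48 had sample 5 at -1.03 (log2), while the other 5 ran from -1.997 to -1.87, a gap of 0.868 of the range. AT3G15490 in WT had sample 1 at -3.72, while the others, most of them at the floor, ran from -4.85 to -4.43, a gap of 0.626 of the range. The floor differs between samples, so part of that range is the spread of the floors.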

How the results depend on the processing

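The count of genes that meet the rule was 62, and 38 with median centring, 34 with cyclic loess, 29 with a common floor, 31 with the floor at the 10th percentile, 4 without a floor (log2 of the value plus 0.1) and 2 on the values as deposited. It ran from 52 to 70 with 1 sample left out. A common floor by its construction raises every value under the highest floor of the 12 samples to that floor. For the other scales the cause was not tested. The count of members called lower in numbers 5 and 6 was 3, and 1 in the fit on 4 samples, and it ran from 2 to 4 with 1 sample left out. The count with a difference of -1 or less was 3, and 1 both on the values as deposited and without a floor, and ran from 2 to 6 with 1 sample left out (6 without WT 5 and without pam48 5). The median member difference was -0.02. It was 0.30 on the deposited values, as for the median probe and for the 12 members with no pam48 value above the floor. Cyclic loess gave -0.11, and the range with 1 sample left out was -0.089 to 0.055. The count over all probes, 503, was 155 in the fit on 4 samples and 277 with the replicate block. It ran from 213 to 505 with 1 sample left out (227 without WT 5, 213 without WT 6). Signs turned on the deposited values for AT5G14910 (0.11) and PIFI (0.24), and with median centring for AT2G02590 (-0.067). With 1 sample left out, differences ran from -0.44 to 0.54 for AT2G02590, from -0.028 to 0.43 for NdhN, from -0.089 to 0.995 for AT5G27860 and from -0.96 to 0.27 for AT4G05030, where pam48 5 and pam48 6 gave the ends. They ran from -0.18 to 1.09 for AT1G24240, where WT 5 and WT 6 did. Of these, AT5G27860 (adjusted p = 0.0093) and AT2G02590 (0.044) passed limma's test without pam48 6. With the replicate block AT5G66530 and AT4G07670 lost their call and no other named member changed its own. Where an arm was left with 1 sample, that sample was assumed to vary like the other groups.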
